A study of Homo sapiens with 18 samples.

Results

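ASS1, FUBP3 and PRDM12 are consecutive protein-coding genes on the long arm of chromosome 9, in that order in RefSeq, and Pol II phosphorylated on serine 5 (Ser5 Pol II) fell at ASS1 and PRDM12 but was not called lower at FUBP3, which lies between them. Their members here are the 5 of 12123 regions of the deposited ChIP-seq count table that overlap a window around each gene: 2 in the ASS1 window (chr9:133319000-133378000, hg19), 1 in the FUBP3 window (chr9:133453900-133514000) and 2 in the PRDM12 window (chr9:133534000-133560000), which was drawn with an upstream flank. The windows were chosen by the fold changes at 2 h and 4 h against DMSO in these same libraries. Those fold changes are therefore given as a description, with their errors and without p-values.

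Rh30 is an alveolar rhabdomyosarcoma line driven by PAX3-FOXO1, a fusion of the DNA-binding part of PAX3 with the activating part of FOXO1. In all groups compared here the fusion is tagged with FKBP, and dTAG47, a small molecule that binds this tag, brings about its degradation. The groups are a DMSO control and dTAG47 at 500 nM, taken after 2 h and after 4 h. Each has 2 Ser5 libraries (A and B), 6 of the 18 samples of the series. Separate cultures are not named in the labels, nor whether the tagged line is a single clone, so errors cover only differences between these libraries. The SD is the spread of the 2 libraries at a region. The standard errors (SE) of edgeR also borrow the spread of all other regions. A control without the tag is not part of the groups, so that an effect of dTAG47 itself and loss of the fusion cannot be told apart.

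Serine 5 of the Pol II C-terminal domain is phosphorylated early in transcription, mostly near start sites, and Ser5 Pol II is also found at active enhancers. ASS1 encodes argininosuccinate synthase, which joins citrulline and aspartate in the synthesis of arginine and in the urea cycle. FUBP3 encodes a KH-domain protein of the family that binds single-stranded DNA of the far upstream element and RNA. PRDM12 encodes a zinc-finger regulator with a PR domain that is needed for the development of pain-sensing neurons.

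The upstream sequences of the 3 genes are shown because the results turn on 3 neighbouring genes that differed in their calls. Each is the 250 bases before the annotated start, 5′ to 3′ on the plus strand, from RefSeq (GRCh38.p14). Capitals mark a match to a motif linked to the DNA-binding parts of PAX3 or to forkhead factors.

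ASS1: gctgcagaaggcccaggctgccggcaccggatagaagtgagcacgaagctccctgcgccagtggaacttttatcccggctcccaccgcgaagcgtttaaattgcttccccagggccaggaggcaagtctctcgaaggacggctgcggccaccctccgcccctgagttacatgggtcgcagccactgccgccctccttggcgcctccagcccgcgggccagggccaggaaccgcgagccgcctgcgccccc
FUBP3: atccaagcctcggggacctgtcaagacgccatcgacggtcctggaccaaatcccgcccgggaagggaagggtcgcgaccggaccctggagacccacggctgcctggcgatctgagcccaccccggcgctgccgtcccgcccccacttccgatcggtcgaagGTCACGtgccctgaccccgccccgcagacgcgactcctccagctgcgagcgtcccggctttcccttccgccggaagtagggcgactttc
PRDM12: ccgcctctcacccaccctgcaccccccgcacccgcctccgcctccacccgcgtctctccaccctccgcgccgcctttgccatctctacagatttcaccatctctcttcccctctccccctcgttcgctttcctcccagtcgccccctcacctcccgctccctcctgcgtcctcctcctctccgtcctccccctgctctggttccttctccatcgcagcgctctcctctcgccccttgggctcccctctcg

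All 3 sequences are rich in G and C, with 68.4% for ASS1, 69.6% for FUBP3 and 68.4% for PRDM12, against a median of 58% over the 35116 promoters of the table. Both strands were searched for TGTTTAC (forkhead core), TAAT and ATTA separated by 3 bases (homeodomain core) and GTCACG (paired-domain core). The 1 match was GTCACG on the plus strand of FUBP3, the gene whose region was not called, with its first base 89 bases before the start. Of all promoters in the table, 7.93% hold GTCACG in the same 250 bases, 2.98% TGTTTAC and 0.33% the homeodomain core. RefSeq gives ASS1 a further start 254 bases downstream, and the 250 bases before it held 0 matches. These letters say nothing on whether a factor binds there. By the placement given below, the ASS1 regions begin at least 34243 and 55683 bases after the gene start, outside the sequences searched. The second PRDM12 region begins at least 17314 bases after the start of its gene, also outside them. Whether the first PRDM12 region and the FUBP3 region overlap the sequences searched was not decided by this placement.

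The regions were placed in their genes from the windows and the RefSeq gene lengths alone, since an annotation of hg19 was not used here. This assumes that each gene has the same length in hg19 and lies whole in its window. The first ASS1 region (chr9:133355675-133356075) starts 36675 bases into its window, and with a gene of 56568 bases it lies in the gene body wherever the gene sits in the window. The second ASS1 region (chr9:133377115-133377515) ends 485 bases before the end of the window. It lies in the last bases of the gene or at most 1547 bases past its end.

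The FUBP3 region (chr9:133454593-133454993) starts 693 bases into its window and is the promoter-proximal region of that gene, within 1093 bases of the start. The first PRDM12 region (chr9:133536057-133536457) starts 2057 bases into a window 7610 bases longer than the gene. Whether it lies in the upstream flank or in the first part of the gene was not decided by length. The second PRDM12 region (chr9:133558924-133559324) ends 676 bases before the end of the window and lies in the last part of the gene or past its end. The first PRDM12 region, at the 5′ side of its gene, and the FUBP3 region were thus the members nearest to a start, while no member lay near the start of ASS1. FUBP3 in turn had no member further along the gene or at its end. Where FUBP3 is compared with ASS1 below, gene and place in the gene therefore cannot be told apart.

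The 5 regions hold between 32 counts (the second PRDM12 region, 4 h library B) and 415 counts (the first PRDM12 region, DMSO library A) per library. Total counts over all regions ran from 962251 in 4 h library B to 1792013 in DMSO library A, and the 3 highest regions of the table took 1.77% to 4.17% of them, most in 4 h library B. Libraries of a group differed by more than sampling noise (chi-square per degree of freedom 1.5 to 2.33), so each was counted as a replicate. Levels below are CPM, counts scaled to library size by TMM, which assumes that most regions do not change. Without 4 h library B, the log2 fold changes at 4 h against DMSO were -1.19 and -1.17 in the ASS1 regions (first and second). They were -1.29 and -1.15 in the PRDM12 regions and -0.15 in the FUBP3 region. The windows were chosen by fold changes in this contrast, so these values are a description. A lower count in such bulk material does not tell fewer cells with polymerase at a site from less polymerase per cell.

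At the first ASS1 region, in the gene body, the libraries gave 117 and 151 CPM in DMSO, 80.3 and 79.1 CPM at 2 h, and 58.0 and 56.5 CPM at 4 h (A and B each). The 3 groups did not overlap, with DMSO highest and 4 h lowest. The share of all regions with this order of 3 groups is not given here. The mean level went from 134 ± 24.1 CPM in DMSO to 79.7 ± 0.88 at 2 h and 57.2 ± 1.06 at 4 h (SD, n = 2 each). The log2 fold change was -0.74 (SE 0.15) at 2 h and -1.21 (SE 0.16) at 4 h, so that 59.4% and 42.6% of the DMSO level remained. DMSO library B was the higher of the pair here, and without DMSO library A the 2 h value was -0.92, without DMSO library B -0.55.

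The second ASS1 region, at the end of the gene, gave 102 and 97.2 CPM in DMSO, 71.2 and 63.1 CPM at 2 h, and 44.1 and 47.9 CPM at 4 h. Here too the 3 groups did not overlap. The log2 fold changes were -0.57 (SE 0.15) at 2 h and -1.13 (SE 0.17) at 4 h, and the mean at 4 h was 46.2% of that in DMSO. Of the falls, this 2 h value was the smallest and the least firm. Its call was lost without DMSO library A (-0.53), without 2 h library A (-0.66) or B (-0.48), and with cyclic loess scaling and limma-trend (-0.57), and DESeq2 gave no adjusted value for it.

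The first PRDM12 region, on the 5′ side of the gene, had the highest level of the 5, with 224 and 259 CPM in DMSO, a mean above those of 98.0% of all regions and the 8th highest of the 560 on chromosome 9. It held 120 and 144 CPM at 2 h, and 97.7 and 88.4 CPM at 4 h, again with no overlap between the 3 groups. The log2 fold change was -0.87 (SE 0.14) at 2 h and -1.36 (SE 0.15) at 4 h, which left 54.8% and 38.5% of the DMSO level. This was the lowest share remaining at 4 h among the 5 regions. No alternative that was run ended its call at either time.

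At the second PRDM12 region, at or past the 3′ end, the level was the lowest of the 5, with 75.1 and 102 CPM in DMSO. It stood at 35.6 and 48.6 CPM at 2 h and at 39.1 and 34.1 CPM at 4 h. Both treated groups lay below DMSO, and unlike in the other 3 regions that fell, the 2 h and 4 h libraries overlapped. The log2 fold changes were -1.06 (SE 0.18) and -1.24 (SE 0.19), so the mean was 47.6% of DMSO at 2 h, the lowest share of the 5 at that time, and 41.3% at 4 h. Library B was above library A in DMSO and at 2 h in both PRDM12 regions, by ratios of A to B between 0.732 and 0.866, and below it at 4 h.

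The FUBP3 region gave 125 and 105 CPM in DMSO, 117 and 109 CPM at 2 h, and 103 and 105 CPM at 4 h. The DMSO libraries enclosed both 2 h libraries and overlapped those at 4 h. Its mean was 115 ± 14.2 CPM in DMSO, 113 ± 5.55 at 2 h and 104 ± 1.51 at 4 h (SD, n = 2 each). The log2 fold change was -0.02 at 2 h (SE 0.14, 95% interval -0.31 to 0.27) and -0.15 at 4 h (SE 0.15, 95% interval -0.44 to 0.15). The intervals hold no change, and also a fall to 0.805 times the DMSO level at 2 h or 0.735 times at 4 h. They rest on edgeR's SE, and DESeq2 gave a larger SE of 0.22 at both times. A smaller change at FUBP3 is thus not shown to be absent.

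**Figure D1:**
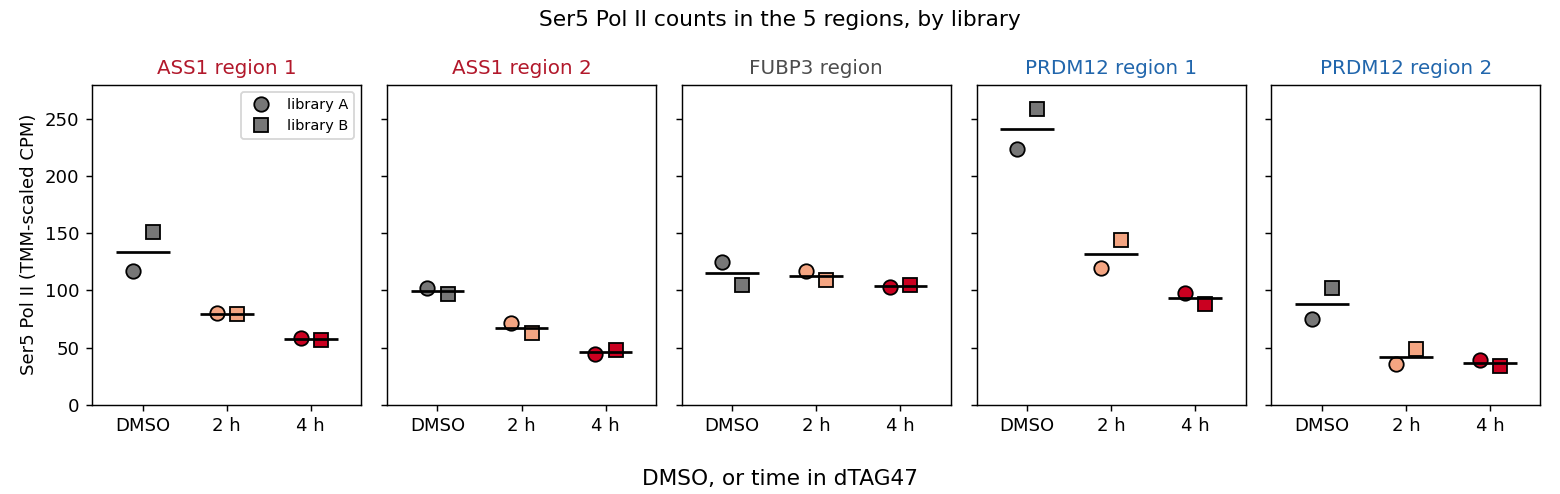
Ser5 Pol II level (TMM-scaled CPM, vertical axis) in each of the 5 regions for DMSO, 2 h and 4 h of dTAG47 (horizontal axis); circles are libraries A, squares libraries B, and lines the means of 2. In both ASS1 regions and both PRDM12 regions all treated libraries lie below both DMSO libraries, while the FUBP3 libraries stay between 103 and 125 CPM.

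Called regions were those with an adjusted p under 0.05 in edgeR's quasi-likelihood test with Benjamini-Hochberg adjustment over all 12123 regions. At 2 h, 4 of the 5 regions were called lower, all but FUBP3, against 0.396% of all regions. At 4 h the same 4 were called lower, against 0.487% of all regions. DESeq2 called 1 of the 5 lower at 2 h and 2 at 4 h, and gave no adjusted value for the second regions of ASS1 and PRDM12. Of all 12123 regions it gave none for 7991 at 2 h and 7286 at 4 h, and these could not be called. Over all regions edgeR called 48 lower and 269 higher at 2 h, and 59 lower and 184 higher at 4 h. The number lower ran from 3 (DESeq2) to 230 (a replicate block by column letter) at 2 h and from 4 to 203 at 4 h. Both treated libraries lay below both DMSO libraries in these 4 at each time, an order found in 21.8% of all regions at 2 h and 20.6% at 4 h. As these contrasts chose the windows, the counts describe the choice, and the 2 times share their DMSO libraries. With 5 members the median log2 fold change was -0.74 at 2 h and -1.21 at 4 h, against -0.01 over all regions at both times.

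**Figure D2:**
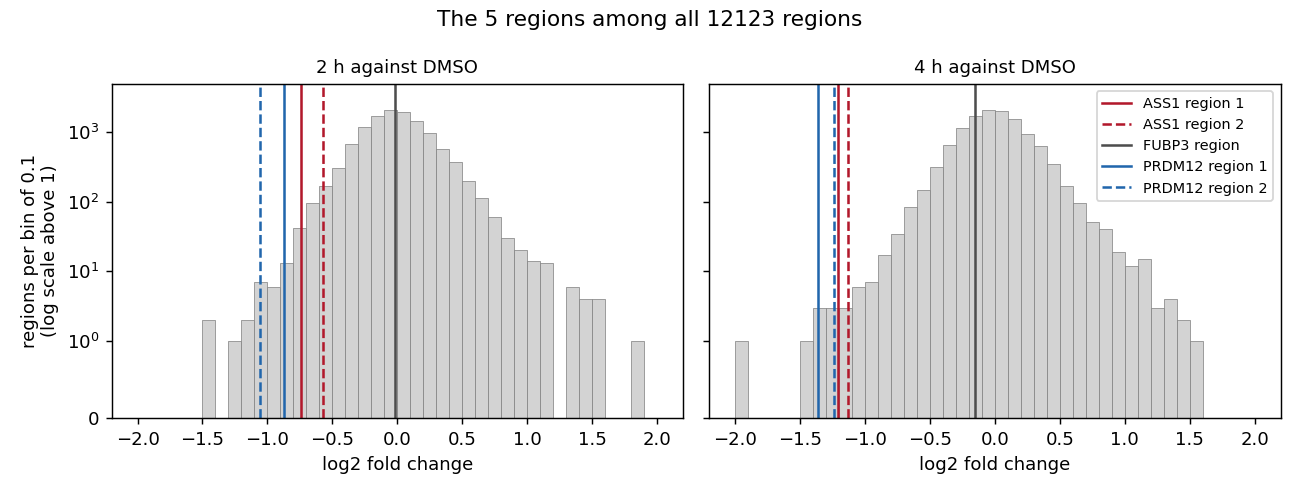
Number of regions (vertical axis, log scale above 1) per bin of log2 fold change (horizontal axis, bins of 0.1) for all 12123 regions, with the 5 regions as lines in the colours of their genes. The FUBP3 line lies in the middle of the distribution at 2 h (-0.02, rank 5765 from the lowest) and below the middle at 4 h (-0.15, rank 3315). The 4 other lines lie in the lower tail, more closely together at 4 h (-1.36 to -1.13) than at 2 h (-1.06 to -0.57).

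By size of fold change among all regions, counted from the lowest, the PRDM12 regions ranked 22 (5′ side) and 9 (3′ side) at 2 h and 5 and 6 at 4 h. The ASS1 regions ranked 54 (body) and 201 (end) at 2 h and 8 and 11 at 4 h. FUBP3 ranked 5765 at 2 h and 3315 at 4 h. At 2 h the PRDM12 values were thus further from 0 than those of ASS1, and at 4 h all 4 stood among the 11 lowest.

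The comparison of 4 h with 2 h is the difference of the 2 contrasts that chose the windows, and choosing regions low at 4 h favours low values in it, so it is described in the same way. The first PRDM12 region had a log2 fold change of -0.49 (SE 0.16), the second ASS1 region -0.56 (SE 0.18) and the first ASS1 region -0.47 (SE 0.18). In these 3 regions both 4 h libraries lay below both 2 h libraries, as they also did at FUBP3 and in 16.4% of all regions. None of the 5 was called. In the whole table edgeR called 0 of 12123 regions (0%) in this contrast, while 396 had a p under 0.05 before adjustment. The count was 0 with DESeq2 (33 before adjustment) and 0 with limma-voom (385 before adjustment).

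For the second PRDM12 region the 4 h value was -0.17 relative to 2 h (SE 0.22, 95% interval -0.63 to 0.28), and for FUBP3 -0.12 (SE 0.15, 95% interval -0.43 to 0.18). For the second PRDM12 region the direction rested on 1 library, with 0.06 without 2 h library B and -0.39 without 2 h library A. A further fall between 2 h and 4 h was therefore not shown for any of the 5 at this depth. By the fold changes alone, most of the fall against DMSO in the second PRDM12 region stood at 2 h already. In the second ASS1 region the 2 h value was about as large as the further step to 4 h. Whether these regions differ in timing was not tested.

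**Figure D3:**
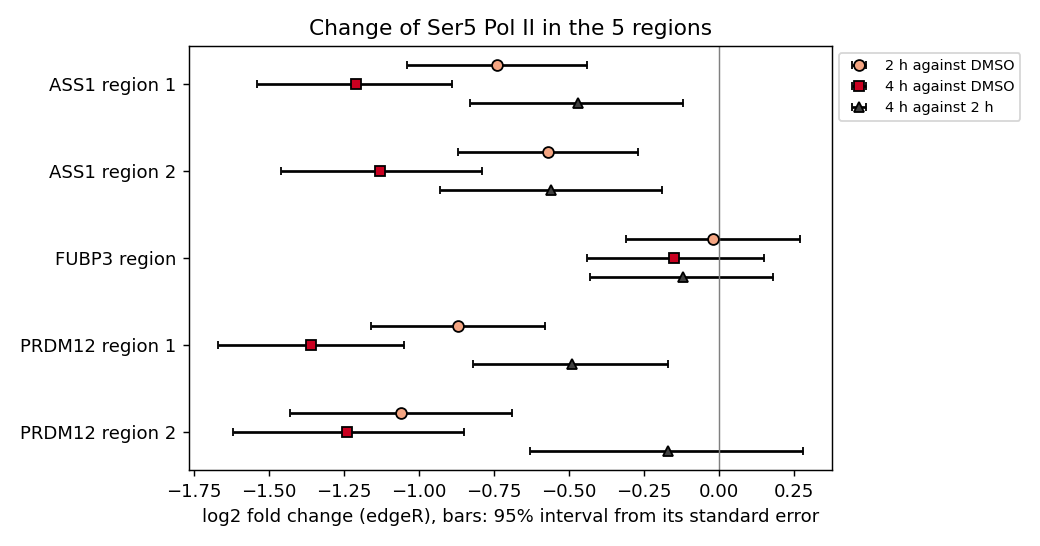
Log2 fold change (horizontal axis) of Ser5 Pol II in the 5 regions for 2 h against DMSO, 4 h against DMSO and 4 h against 2 h; bars are 95% intervals from the edgeR standard error. For 4 h against 2 h, the intervals of FUBP3 and of the second PRDM12 region include 0, and those of the first and second ASS1 regions and the first PRDM12 region end at -0.12, -0.19 and -0.17, with no adjustment for the number of regions.

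Scaling between libraries can be avoided by dividing each count by that of the FUBP3 region in the same library. The first PRDM12 region then held 1.80 and 2.47 times the FUBP3 count in DMSO, 1.02 and 1.32 times at 2 h and 0.945 and 0.838 times at 4 h. A region with about double the FUBP3 count in DMSO thus held fewer counts than FUBP3 in both 4 h libraries. For the first ASS1 region the ratio went from 0.939 and 1.44 in DMSO to 0.685 and 0.722 at 2 h and 0.561 and 0.535 at 4 h. For the second ASS1 region it went from 0.818 and 0.928 to 0.607 and 0.576 and then 0.427 and 0.455. The ratios of both ASS1 regions and of the first PRDM12 region did not overlap between any of the 3 groups. The share of all regions with such an order is not given here. The windows, that of FUBP3 included, were chosen by fold changes in these same libraries. Lower ratios after treatment thus follow in part from that choice and are a description.

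The second PRDM12 region had ratios of 0.602 and 0.974 in DMSO, 0.304 and 0.444 at 2 h, and 0.378 and 0.323 at 4 h, where both treated groups lay below DMSO and overlapped each other. On the log2 scale these ratios differed from DMSO by -1.06 at 2 h and -1.13 at 4 h. The differences were -0.86 and -1.24 for the first PRDM12 region, -0.73 and -1.09 for the first ASS1 region and -0.56 and -0.98 for the second. With 2 libraries per group an exact test of a ratio cannot go below a two-sided p of 0.333, and none was made.

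**Figure D4:**
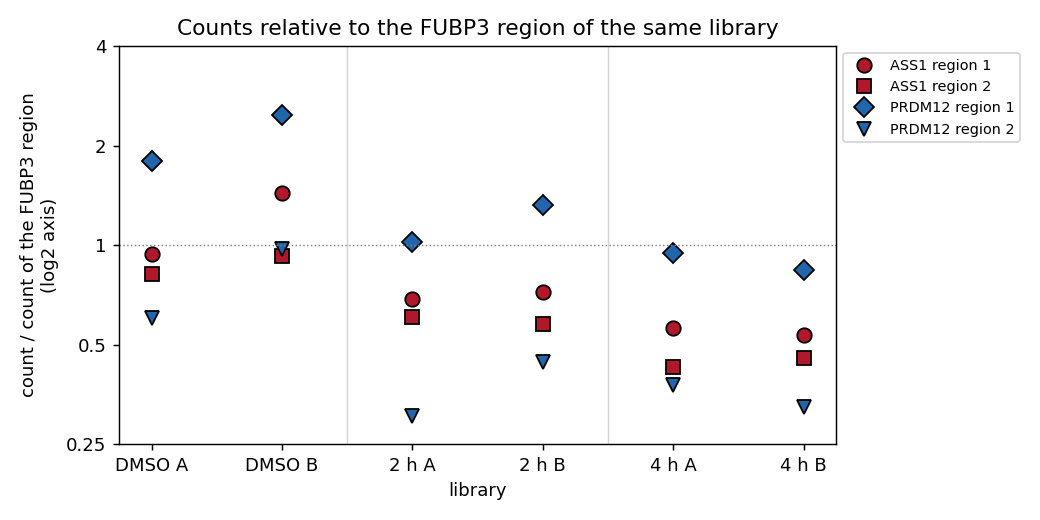
Count of each ASS1 and PRDM12 region divided by the count of the FUBP3 region of the same library (vertical axis, log2 scale) in the 6 libraries (horizontal axis). Each of the 4 regions is lower in all 4 treated libraries than in either DMSO library, and the first PRDM12 region crosses from 1.80 and 2.47 in DMSO to below 1 in both 4 h libraries. The windows were chosen by fold changes in these same libraries.

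Summed over its regions, PRDM12 had 299 and 361 CPM in DMSO, 156 and 193 CPM at 2 h and 137 and 123 CPM at 4 h. ASS1 had 219 and 248 CPM, then 152 and 142 CPM, then 102 and 104 CPM. FUBP3, with its single region, had 103 and 105 CPM at 4 h, near the sum of the 2 ASS1 regions. Each ASS1 region alone lay below that, with mean levels at 4 h of 57.2 and 46.0 CPM. As a share of the counts of all 5 regions, FUBP3 made up 19.4% (95% Wilson interval 17.2% to 21.7%) and 14.7% (12.7% to 16.9%) in the DMSO libraries A and B. At 2 h it made up 27.6% (24.2% to 31.3%) and 24.6% (21.3% to 28.3%), and at 4 h 30.2% (26.5% to 34.2%) and 31.7% (26.8% to 37.1%). The shares sum to the whole, so that of FUBP3 went up while its own level did not. The share of ASS1 lay between 29.8% and 35.7% in all 6 libraries, although its summed level at 4 h was 44.2% of that in DMSO. The share of PRDM12 was 46.5% and 50.5% in DMSO, 36.7% and 43.4% at 2 h and 40.0% and 36.9% at 4 h. These intervals cover counting error only.

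The regions on either side of the stretch were not called at either time. The nearest region before the ASS1 window (chr9:133223834-133224234, 94.77 kb away) gave 32.4 and 39.0 CPM in DMSO, 20.2 and 33.4 at 2 h, and 28.4 and 32 at 4 h. Its log2 fold changes were -0.41 (SE 0.26, edgeR adjusted p = 0.492) and -0.25 (SE 0.26, adjusted p = 0.762), with counts too low to set a narrow limit. The nearest region after the PRDM12 window (chr9:133588269-133588669, 28.27 kb away) gave 84.2 and 79.4 CPM in DMSO, 78.2 and 78.3 at 2 h, and 78.8 and 71.4 at 4 h. It had log2 fold changes of -0.07 (SE 0.15, adjusted p = 0.905) and -0.11 (SE 0.15, adjusted p = 0.834), values close to those of FUBP3. In RefSeq the next protein-coding genes on these sides are HMCN2 before ASS1, and EXOSC2, which encodes a subunit of the RNA exosome, and the kinase gene ABL1 after PRDM12. The regions were not tied to them.

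Within 1 Mb of the outer window ends the table holds 18 further regions, of which edgeR called 0 lower and 0 higher at either time. At an unadjusted p under 0.05, 1 was lower at each time and 0 higher. Their log2 fold changes ran from -0.41 to 0.22 at 2 h and from -0.59 to 0.24 at 4 h, with a median of -0.10 at both times. The 6 within 500 kb were all below 0 at both times, with medians of -0.27 at 2 h and -0.15 at 4 h, and 0 were called. All 18 were closer to 0 than the 4 regions of ASS1 and PRDM12. Those 4 lie in windows chosen by these fold changes and the 18 do not, so this order follows in part from the choice. The lowest, at chr9:132881090-132881490, had -0.59 at 4 h (SE 0.21, adjusted p = 0.147). The 555 regions of chromosome 9 outside the windows had medians of -0.04 and -0.02, with 4 called lower and 5 higher at 2 h, and 2 lower and 7 higher at 4 h.

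**Figure D5:**
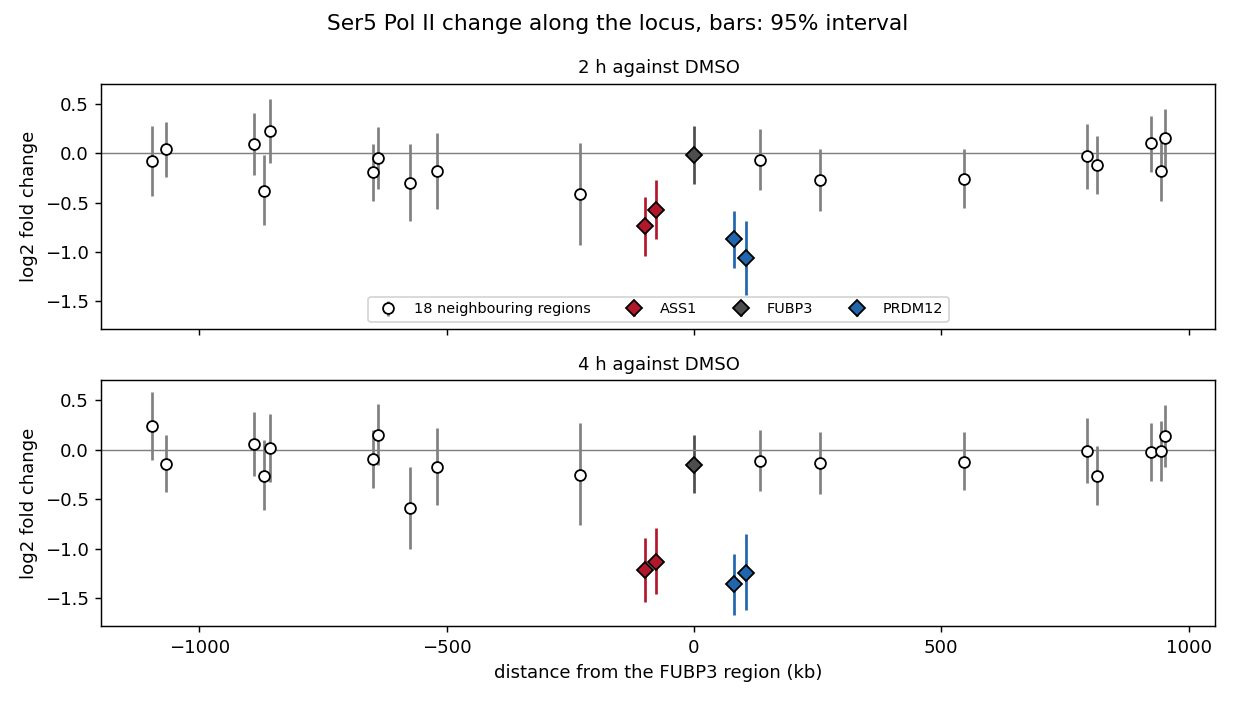
Log2 fold change (vertical axis) of the 5 regions and of 18 neighbouring regions by distance from the FUBP3 region (horizontal axis, kb), for 2 h (top) and 4 h (bottom) against DMSO; bars are 95% intervals. The 4 ASS1 and PRDM12 points lie below all 18 neighbours at both times, with the FUBP3 point at -0.02 and -0.15 between them. The windows of the 5 regions, unlike the neighbours, were chosen by these fold changes.

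Set against the median count of these 18 neighbours in place of FUBP3, the falls were of the same kind. The log2 ratio differed from DMSO by -0.76 and -1.32 at 2 h and 4 h for the first ASS1 region, -0.59 and -1.22 for the second, -0.89 and -1.48 for the first PRDM12 region and -1.09 and -1.37 for the second. The FUBP3 region itself held 1.42 and 1.34 times the median neighbour in DMSO, 1.38 and 1.32 times at 2 h, and 1.09 and 1.25 times at 4 h. On this measure both 4 h libraries lay below both DMSO libraries, by -0.24 on the log2 scale. The share of all regions in that order on this measure is not given here. At 2 h the difference was -0.03 and the libraries overlapped.

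The regions of the table whose profile over the 6 libraries was most like that of each gene were found by the Euclidean distance of row-centred log2 CPM, among the 11992 regions whose mean count was 20 or more. For ASS1 (mean of its 2 regions) they were chr15:58766925-58767325, chr11:20184907-20185307 and chr4:66535232-66535632, at distances of 0.28, 0.28 and 0.31. Their log2 fold changes were -0.70, -0.51 and -0.61 at 2 h and -1.06, -1.05 and -0.93 at 4 h. For PRDM12 they were chr12:30263575-30263975, chr17:6458833-6459233 and chr17:62065539-62065939, at distances of 0.40, 0.46 and 0.51, with -0.74, -1.22 and -0.62 at 2 h and -1.16, -1.37 and -0.93 at 4 h. ASS1 and PRDM12 themselves were 0.48 apart, further than all 3 regions listed for ASS1 and than the first 2 listed for PRDM12. The 2 regions of ASS1 were 0.38 apart, as were those of PRDM12. The 0.48 lies between 2 means of 2 regions, and the distances listed for these genes between such a mean and 1 region. They are therefore not measured alike. FUBP3 was 1.06 from ASS1 and 1.35 from PRDM12, and its 3 most like regions, on chromosomes 20, 1 and 15, lay within 0.07 of it, as a flat profile has many neighbours. These distances rest on 6 libraries shared by all regions and are a description. As the windows were chosen by fold changes in these libraries, the distances between the 3 genes follow in part from that choice.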

How the data were processed

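Ser5 Pol II ChIP-seq was read from the authors' deposited raw counts for 12123 regions of 400 bases in 6 libraries; libraries made with other antibodies were not analysed here. The submitters' processing notes name the builds hg19 and dm3 and the tools DiffBind, DESeq2, MACS2, Bowtie2 and Trimmomatic 0.32. Their roles and the way regions were called were not given in the sources used here. Columns carry letters that were tied to groups, not to the replicate numbers of the labels. Positions are given as deposited. Without spike-in counts or whole-library totals, a change common to all regions would not be seen.

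Regions overlapping the 3 windows were taken. Counts were fitted with edgeR 4.0.16 in R 4.3.3 (TMM, filterByExpr, which removed 0 regions, quasi-likelihood test, 6 libraries in 1 fit, Benjamini-Hochberg over all regions), a procedure tested on simulated data. Standard errors are the log2 fold change divided by the square root of F. Members, lists and alternatives were chosen with earlier results of these data known. The planned gene lists and cell line markers need an hg19 annotation and were not read, so the labelled cell type was not checked. The text names all members, the nearest regions outside the windows and the 3 most like regions per gene; the lowest neighbour was chosen after its value was seen. The placement by gene length, and the covariate for the 3 highest regions, were added after the data were seen. Alternatives used DESeq2 1.42.0 and limma 3.58.1.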

Additional observations from a re-analysis of the deposited data

How the results depend on the processing

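Each log2 fold change was computed under 17 alternatives. Both ASS1 and both PRDM12 regions stayed below 0 in all 17 at 2 h and at 4 h, from -0.92 to -0.48 (ASS1) and -1.29 to -0.74 (PRDM12) at 2 h, and from -1.40 to -1.02 and -1.46 to -1.0 at 4 h. Leaving out a library gave -0.92 to -0.55 at 2 h and -1.40 to -1.02 at 4 h for the first ASS1 region, -0.66 to -0.48 at 2 h for the second, and -0.13 to 0.12 at 2 h and -0.25 to -0.01 at 4 h for FUBP3. FUBP3 was called in none of the 17 and was above 0 at 2 h in 3 of them (0.04 with the covariate, 0.12 without DMSO library A and 0.03 without 2 h library B). DESeq2 called 1 of the 5 regions lower at 2 h and 2 at 4 h, with no adjusted value for 2 of the 5 at either time. In the other alternatives 3 or 4 were called at 2 h and 4 at 4 h. With the median neighbour as reference, the 4 h difference of the second ASS1 region was -1.22 in place of -0.98; all 4 regions shifted alike, since FUBP3 itself differed by -0.24 on that measure.

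All regions called lower numbered 48 at 2 h and 59 at 4 h. At 2 h there were 87 with total count scaling, 26 with cyclic loess and limma-trend, 3 with DESeq2, 81 with only the groups compared, 135 with the covariate for the 3 highest regions, 10 at a threshold of 0.01, and 15 to 87 without a library. At 4 h there were 4 with DESeq2, 109 with the covariate, 18 at 0.01, and 27 to 71 without a library. A replicate block by column letter gave 230 and 203 and changed no call among the 5 regions; deviations of same-letter libraries correlated at 0.158 to 0.279, which is a hint from the data, not the design. As filterByExpr dropped 0 regions, leaving it out was no real alternative. At 32 to 415 counts per library, counting error alone is 18% to 4.9% of a value.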
